A study of Mus musculus with 6 samples.

Results

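Otocysts of mouse embryos carrying 1 trapped copy of Chd7 (Chd7Gt/+) were compared with wild type otocysts (Chd7+/+), and every gene that the study listed as different in that comparison was read by its tissue of origin and its function. The otocyst is the epithelial vesicle from which the whole inner ear develops. It lies against the hindbrain, surrounded by mesenchyme, migrating neural crest and vessels. All embryos had the B6129SF1/J strain background and were dissected at embryonic day 10.5, and polyadenylated RNA was sequenced from 2 libraries per genotype. The Gt allele, a gene trap in mouse nomenclature, is present in every tissue of the embryo and not in the ear alone, and the labels do not say how many ears or embryos went into a library. The homozygous genotype of the series (Chd7Gt/Gt) was compared with the same 2 wild type libraries, and its values are set beside the heterozygous ones below.

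The members are the 138 genes of the heterozygous lists, 43 higher and 95 lower than wild type, out of 1167 genes listed in the series as a whole. Among 21900 protein-coding genes of the RefSeq annotation, which stand in for the unstated number of genes tested, 0.616% were listed in heterozygotes, 0.183% as higher and 0.434% as lower. In homozygotes, against the same wild type libraries, the shares were 4.75% in all, 1.79% higher and 2.96% lower. The authors gave every gene its log2 fold change and adjusted p, all under 0.05. No values per library were at hand, so depth and the spread between libraries are unknown. Whether replicate libraries were made from different embryos is not stated. The adjusted p-values thus reflect the spread between these samples alone, which may be technical. In such bulk samples, fewer cells of a type and less RNA per cell cannot be told apart. As membership itself was decided by these values, the folds below describe the genes and test nothing further.

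CHD7 is an ATP-dependent chromatin remodeller that binds enhancers and is needed in the otic placode, the neural crest and the developing hindbrain. In people, loss of 1 copy causes CHARGE syndrome, in which the semicircular canals are often malformed, and heterozygous mice have inner ear defects as well. The ventral neural tube close to the ear is patterned by Sonic hedgehog, which the notochord and floor plate secrete and which also acts on the ventral otocyst.

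Chd7 itself fell to 67.1% of wild type in heterozygotes (log2 -0.57, adjusted p 7.27e-07 from the authors' deposited table). In homozygotes it was at 22.4% of wild type in the authors' deposited table. The genotype labels and the trapped gene's level therefore run in the same order. Of the 20 protein-coding genes nearest to Chd7 on its chromosome, 10 on each side, 0 were in the heterozygous lists. As 0.616% of all annotated protein-coding genes were listed, 0 of 20 says little about these neighbours. The only other listed gene of the 36 chromatin remodellers examined was Smarcc2, a core subunit of the SWI/SNF complexes, at 88.3% of wild type (log2 -0.18, adjusted p 0.0254 from the authors' deposited table).

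Most of the listed changes were of moderate size. Of the 138 genes, 87 had an absolute log2 fold under 1, 34 lay between 1 and 2, and 17 were at or above 2 in the authors' deposited table. Median log2 folds were 0.94 for the higher and -0.72 for the lower genes, which correspond to 1.92-fold and to 60.8% of wild type in the authors' deposited table. Some small folds had small adjusted p-values and some large folds did not. The homeobox gene Meis2 is given with an adjusted p of 0 at log2 -0.31 by the authors' deposited table, whereas the winged-helix gene Foxa1 has an adjusted p of 0.0252 at log2 -3.32. The smallest listed fold was that of the RNA-binding protein gene Hnrnpc (log2 0.07, adjusted p 0.0103 from the authors' deposited table). An adjusted p of 0 was given for 10 genes, 4 higher and 6 lower, while the smallest value above 0 in the authors' deposited table was 1.01e-12.

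**Figure D1:**
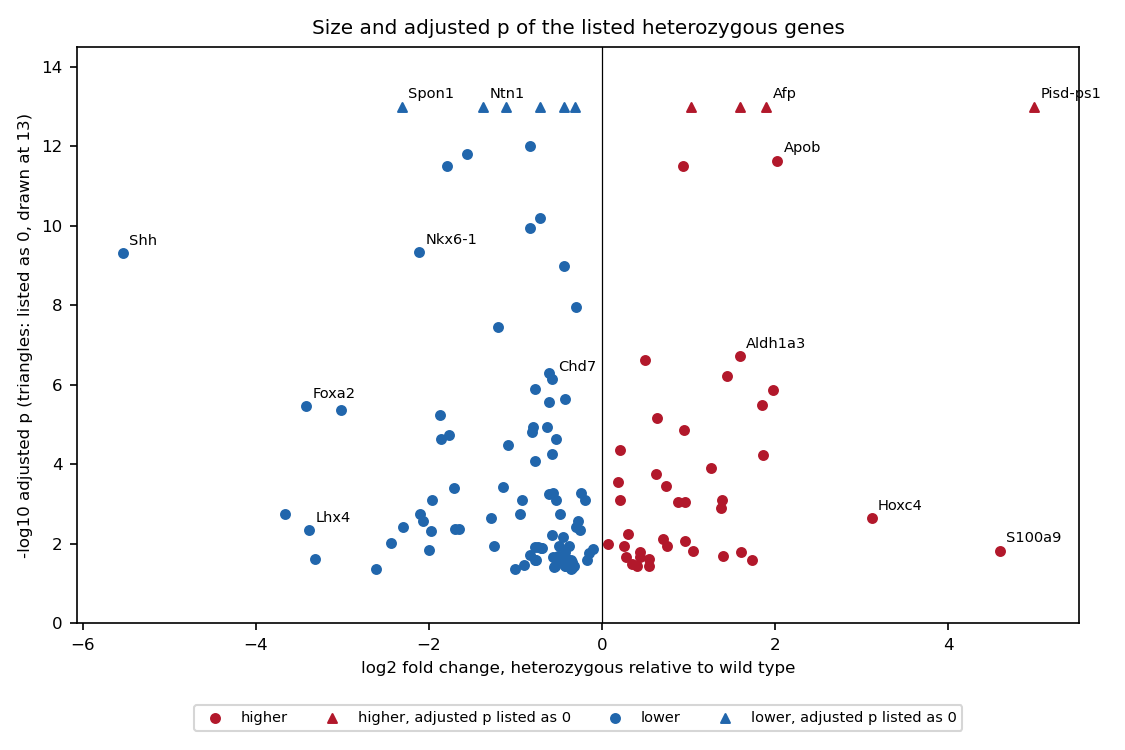
Log2 fold change of each listed heterozygous gene relative to wild type (x axis) against -log10 of the authors' adjusted p (y axis), with higher genes in red and lower genes in blue. Triangles mark the 10 genes whose adjusted p is listed as 0, drawn at 13 for display; Shh stands farthest to the left at a log2 fold of -5.54 and Pisd-ps1 farthest to the right at 4.99.

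Genes of the floor plate and ventral neural tube held the deepest fall, that of Shh, and the lowest median of the 16 classes into which the 138 genes were sorted. Of 32 such genes, 12 were listed, all 12 lower, and by the authors' deposited table their median log2 fold was -2.22. That is 37.5% of the list, against 0.434% of all annotated protein-coding genes listed as lower. The list was compiled with earlier results of these data known, so the count describes it and is not independent evidence. Of 7 floor plate markers, 6 were lower and Nkx2-9 was not listed.

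The secreted signal was lowest of all: Shh, the ligand made by floor plate and notochord, was at 2.16% of wild type (log2 -5.54, adjusted p 4.98e-10 from the authors' deposited table). Foxa2, the winged-helix factor that specifies floor plate, was at 9.34% (log2 -3.42, adjusted p 3.43e-06 from the authors' deposited table). Its relative Foxa1 was at log2 -3.32 (adjusted p 0.0252 from the authors' deposited table). Both winged-helix genes were thus listed far below wild type, though with adjusted p-values of different size.

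The promoter of Foxa1 is shown because it carries a match to the motif bound by the FOXA proteins, both of whose ventral neural tube genes fell. It lies at chr12:57546112-57546361 on the minus strand of GRCm38.p6 in RefSeq and is printed 5′ to 3′ for the 250 bases before the annotated start, with the match in capitals.
Foxa1: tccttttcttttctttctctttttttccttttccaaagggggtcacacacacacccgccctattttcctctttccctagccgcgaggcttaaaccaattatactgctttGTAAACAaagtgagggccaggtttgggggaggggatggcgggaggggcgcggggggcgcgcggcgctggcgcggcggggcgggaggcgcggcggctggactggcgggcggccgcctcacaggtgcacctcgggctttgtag
The letters searched were TGTTTAC on either strand, and the match starts 141 bases before the start. Of 9 promoter windows of the listed floor plate and ventral neural tube genes, this was the only one with the motif, and 3.17% of all 32851 promoter windows held it. The 9-letter GLI motif TGGGTGGTC of the Hedgehog pathway was in 0 of these 9 windows and in 0.225% of all windows. At so low a share, 0 of 9 says little. A match describes letters and not a bound site.

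Transcription factor genes of the ventral progenitor domains fell less deeply. Nkx2-2, which marks the progenitors next to the floor plate and is a target of Hedgehog signalling, was at 12.4% of wild type (log2 -3.02, adjusted p 4.47e-06 from the authors' deposited table). Nkx6-1, active over a broader ventral field that includes motor neuron progenitors, was at 23.1% (log2 -2.12, adjusted p 4.55e-10 from the authors' deposited table). Its paralogue Nkx6-2 was at 27.4% (log2 -1.87, adjusted p 5.79e-06 from the authors' deposited table). The ventral markers Olig2, Sim1 and Lmx1b were not listed.

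Genes of matrix and guidance proteins that the floor plate secretes were also in the group. Spon1, encoding F-spondin, was at 20.1% of wild type (log2 -2.31, adjusted p listed as 0 from the authors' deposited table), and Vtn, encoding vitronectin, at 33.8% (log2 -1.57, adjusted p 1.54e-12). Ntn1, the chemoattractant netrin-1, was at 38.6% (log2 -1.37, adjusted p listed as 0 from the authors' deposited table); it is made by floor plate but also by otic epithelium, where it is needed for semicircular canal formation. The repellents Slit2 (log2 -0.83, adjusted p 1.12e-10) and Slit1 (log2 -0.56, adjusted p 0.0216) had the smallest falls of the group in the authors' deposited table. The secreted proteins thus spanned log2 -0.56 to -5.54.

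Motor neuron regulators fell beside them. Lhx4 was at 9.6% of wild type (log2 -3.38, adjusted p 0.00461), its partner in motor neuron specification Lhx3 at 25.4% (log2 -1.98, adjusted p 0.00491), and the hindbrain motor neuron gene Tbx20 at 30.9% (log2 -1.70, adjusted p 0.00436), all in the authors' deposited table. Of 20 hindbrain and spinal motor neuron genes, these 3, Nkx2-2 and Nkx6-1 were listed, all 5 lower. That is 25%, against 0.434% of all annotated protein-coding genes listed as lower. Nkx2-2 and Nkx6-1 are counted with the floor plate and ventral genes as well. Like all the lists used here, this one was compiled with earlier results of these data known, so its count is not independent evidence. The motor neuron markers Mnx1 and Isl1 were not listed. Of 24 Hedgehog pathway genes, Shh and Nkx2-2 were listed, and the receptor and target gene Ptch1 and the effector Gli1 were not. The listed share was 8.33%, against 0.616% of all annotated protein-coding genes.

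Set beside homozygotes, 11 of the 12 floor plate and ventral genes were not listed there. Of all annotated protein-coding genes, 4.75% were listed in homozygotes. The exception among the 12 was Nkx6-2, at log2 -1.87 in heterozygotes and 1.13 in homozygotes (adjusted p 0.000472 for the latter from the authors' deposited table). Of the motor neuron regulators, Lhx3 was listed in homozygotes as well (log2 -2.40, adjusted p 0.0113 from the authors' deposited table), and Lhx4 and Tbx20 were not. Not being listed may mean that a gene missed the threshold or was not measured. The floor plate lies at the ventral midline of the neural tube and is no part of the otic vesicle. The amount of neural tube in each dissection was not measured, and its part in these values was not tested.

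**Figure D2:**
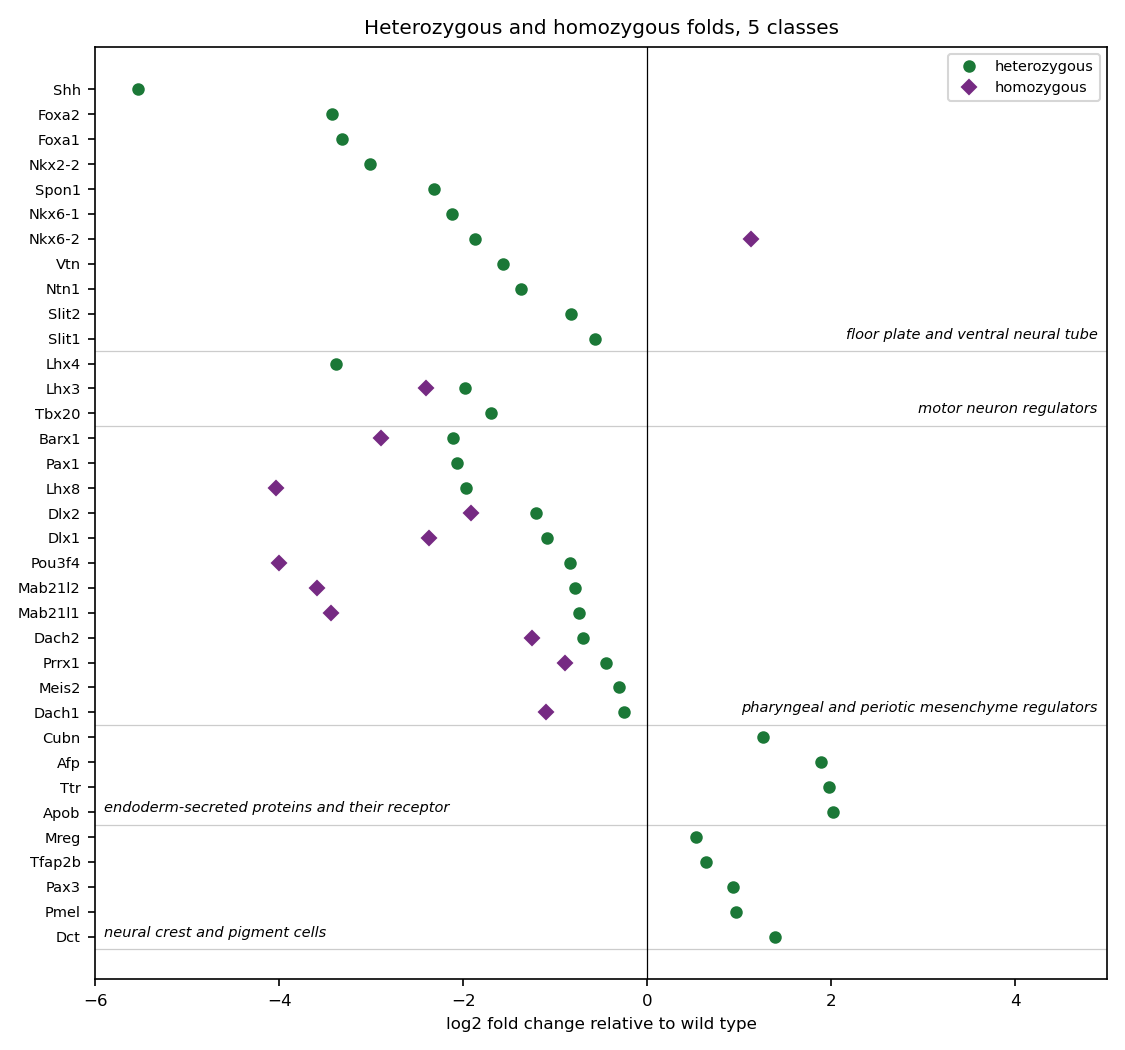
Log2 fold change relative to wild type (x axis) of the genes of 5 classes (y axis) in heterozygotes (green circles) and, where listed, in homozygotes (purple diamonds). Homozygous values are present for 1 of the 11 floor plate and ventral genes plotted, 1 of 3 motor neuron regulators, 10 of 12 mesenchyme regulators and none of the endoderm or pigment cell genes. Wild type libraries are shared by both comparisons.

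Regulators of pharyngeal and periotic mesenchyme formed another group in which every listed member was lower. There were 12, and by the authors' deposited table their median log2 fold was -0.81. The class was put together after the values were seen, and the higher genes Dlk1 and Ebf3 of the mesenchyme list below were placed in other classes. Of the 12 regulators, 4 belong to the arch mesenchyme derived from neural crest. Barx1 was at 23.2% of wild type (log2 -2.11, adjusted p 0.0018 from the authors' deposited table) and Lhx8 at 25.6% (log2 -1.96, adjusted p 0.000819). Dlx2 (log2 -1.20, adjusted p 3.63e-08) and Dlx1 (log2 -1.09, adjusted p 3.27e-05), neighbouring homeobox genes that act in the upper part of the arches, were at 43.4% and 46.9% in the authors' deposited table. All 4 were listed as lower in homozygotes too, at log2 -2.89, -4.03, -1.91 and -2.37 in the authors' deposited table.

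Pax1, a gene of pharyngeal pouch endoderm and sclerotome, was at 23.8% of wild type (log2 -2.07, adjusted p 0.00271 from the authors' deposited table) and was not listed in homozygotes. The periotic mesenchyme and deafness gene Pou3f4 was at 56.1% (log2 -0.83, adjusted p 0.0194 from the authors' deposited table), and in homozygotes at 6.25%. Prrx1, which marks limb and head mesenchyme, was at 73.4% (log2 -0.45, adjusted p listed as 0 from the authors' deposited table). Both of these genes were thus reduced by less than the arch genes.

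The remaining regulators of this group are expressed in several tissues around and including the ear. Mab21l2 (log2 -0.78, adjusted p 1.27e-06) and Mab21l1 (log2 -0.74, adjusted p 0.0124) were at 58.2% and 59.9% of wild type in the authors' deposited table. In homozygotes the same pair was at 8.34% and 9.25% in the authors' deposited table. Dach2 (log2 -0.69, adjusted p 0.0127), Meis2 (-0.31, adjusted p listed as 0) and Dach1 (-0.25, adjusted p 0.00461) are cofactors of homeodomain networks with smaller falls in the authors' deposited table. Of the 12 regulators, 10 were lower in homozygotes and Pax1 and Meis2 were not listed.

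Of 47 periotic and cranial mesenchyme genes compiled as a list, 8 were lower and 2 higher, 21.3% in all. That compares with 0.616% of all annotated protein-coding genes. The higher ones were Dlk1, an imprinted Notch-like ligand gene (log2 0.40, adjusted p 0.0359 from the authors' deposited table), and Ebf3 (log2 0.21, adjusted p 4.55e-05). The general mesenchyme markers Twist1, Col1a1, Col3a1 and Foxc1 were not listed. How much surrounding mesenchyme each dissection held was not measured, and its part was not tested.

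The listed extracellular matrix genes were all lower: 10 of 82 were listed, 12.2%, against 0.434% of all annotated protein-coding genes listed as lower. By the authors' deposited table the median log2 fold of the 10 was -0.68. This list, too, was compiled with earlier results of these data known, so its count is not independent evidence. Postn, encoding the mesenchymal adhesion protein periostin, was at 60.8% of wild type (log2 -0.72, adjusted p listed as 0), and the proteoglycan genes Lum and Vcan were at 58.4% (log2 -0.78, adjusted p 0.0124) and 80.9% (log2 -0.31, adjusted p 1.12e-08) per the authors' deposited table. Npnt, the integrin ligand nephronectin, was at log2 -0.42 (adjusted p 0.0377), Igfbp5 at -0.38 (adjusted p 0.0116) and the fibrillar collagen gene Col11a1 at -0.35 (adjusted p 0.0425) per the authors' deposited table. Spon1 and Vtn are counted here and with the floor plate.

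Sparcl1, a SPARC-related glycoprotein gene, was at log2 -0.64 in heterozygotes (adjusted p 1.14e-05) and at 0.91 in homozygotes (adjusted p 0.0416) per the authors' deposited table. In addition, 2 matrix genes outside the list were lower. Vit, encoding vitrin, was at 30.6% of wild type (log2 -1.71, adjusted p 0.000402), and the basement membrane collagen gene Col15a1 at 69.0% (log2 -0.53, adjusted p 0.000801) per the authors' deposited table.

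**Figure D3:**
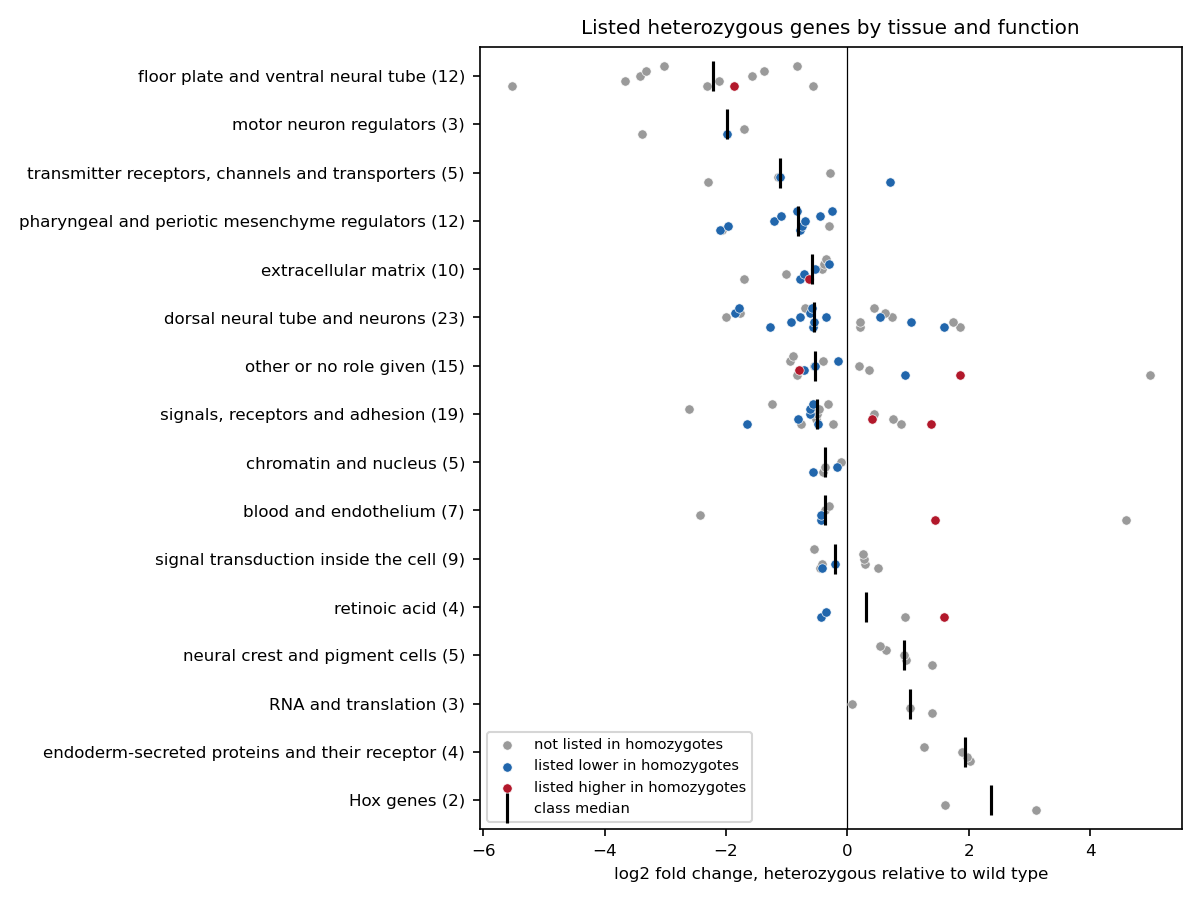
Log2 fold change in heterozygotes relative to wild type (x axis) for all 138 listed genes, arranged in 16 classes of tissue or function with the number of genes in brackets (y axis). Each point is a gene, coloured by whether it was listed in homozygotes and in which direction, and black bars are class medians; floor plate genes have the lowest median, -2.22, and all points of the endoderm, pigment cell, RNA and Hox classes lie above 0.

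Transcripts of proteins that embryonic endoderm secretes were higher. Apob, the structural protein of lipoproteins, was 4.06-fold higher (log2 2.02, adjusted p 2.28e-12 from the authors' deposited table). The retinol and thyroxine carrier gene Ttr was 3.93-fold higher (log2 1.98, adjusted p 1.34e-06 from the authors' deposited table), and the fetal serum protein gene Afp 3.72-fold (log2 1.90, adjusted p listed as 0). Cubn, encoding the endocytic receptor cubilin of the visceral endoderm, was 2.39-fold higher (log2 1.26, adjusted p 0.000126 from the authors' deposited table). These 4 genes thus rose between 2.39-fold and 4.06-fold, and none was listed in homozygotes. They are known from yolk sac, liver and kidney, among other tissues, and their source here was not tested.

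Of the 37 endoderm and notochord genes in the list, these 4 were higher and Shh, Foxa2, Foxa1 and Pax1 lower, 21.6% in all. Of all annotated protein-coding genes, 0.616% were listed. The 4 lower genes are also expressed in floor plate, notochord or pharyngeal pouches. The notochord genes T and Noto and the endoderm gene Apoa1 were not listed. Whether yolk sac, gut or any other tissue was carried along in a dissection was not tested.

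Promoters of Afp and Apob are shown since both genes moved together and both windows hold a TATA motif. They lie at chr5:90490464-90490713 and chr12:7977427-7977676, both on the plus strand of GRCm38.p6 in RefSeq, for the 250 bases before the annotated start, 5′ to 3′.
Afp: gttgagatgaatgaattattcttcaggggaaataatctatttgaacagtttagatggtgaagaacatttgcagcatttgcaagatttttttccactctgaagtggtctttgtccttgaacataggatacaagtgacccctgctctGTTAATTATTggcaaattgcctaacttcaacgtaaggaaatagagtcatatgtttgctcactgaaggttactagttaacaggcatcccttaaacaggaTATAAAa
Apob: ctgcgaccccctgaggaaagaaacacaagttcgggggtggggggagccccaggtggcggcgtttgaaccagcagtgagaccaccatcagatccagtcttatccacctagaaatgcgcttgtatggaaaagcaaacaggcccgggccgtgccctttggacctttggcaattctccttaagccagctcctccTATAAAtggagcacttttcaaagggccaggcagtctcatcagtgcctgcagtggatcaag
Capitals mark the letters TATAAA, searched on both strands, which stand 7 bases before the start in Afp and 60 in Apob. In Afp the first run of capitals marks a match to the motif of the endoderm factors HNF1, which begins 105 bases before the start. All promoter windows held TATAAA in 12.4% of cases and the HNF1 letters in 0.371%. Among the 3 windows of this group, the HNF1 letters were in Afp alone. G and C made up 36.0% of the Afp window and 55.2% of the Apob window, against a median of 52.4% over all windows.

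Listed genes of the neural crest and pigment cell class were higher, whereas the crest-derived arch mesenchyme genes named above were lower. Of 29 genes of neural crest, melanoblasts and glia, 4 were listed, 13.8%, all 4 higher, against 0.183% of all annotated protein-coding genes listed as higher. Earlier results of these data were known when this list was compiled, so the count is not independent evidence. Dct, the dopachrome tautomerase of melanin synthesis, was 2.62-fold higher (log2 1.39, adjusted p 0.000814 from the authors' deposited table). The melanosome matrix gene Pmel was 1.95-fold higher (log2 0.96, adjusted p 0.0009 from the authors' deposited table). Of the transcription factors, Pax3, active in dorsal neural tube and crest, was 1.91-fold higher (log2 0.93, adjusted p 3.21e-12) and Tfap2b 1.55-fold (log2 0.64, adjusted p 6.74e-06) per the authors' deposited table.

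Mreg, which encodes a melanosome transport protein and was outside the list, was at log2 0.54 (adjusted p 0.024 from the authors' deposited table). None of these 5 genes was listed in homozygotes, and the crest markers Sox10, Mitf and Kit were not listed in heterozygotes. The Dct promoter, at chr14:118052247-118052496 on the minus strand of GRCm38.p6 in RefSeq, is shown because it holds the M-box, the recognition motif of the melanocyte factor MITF.
Dct: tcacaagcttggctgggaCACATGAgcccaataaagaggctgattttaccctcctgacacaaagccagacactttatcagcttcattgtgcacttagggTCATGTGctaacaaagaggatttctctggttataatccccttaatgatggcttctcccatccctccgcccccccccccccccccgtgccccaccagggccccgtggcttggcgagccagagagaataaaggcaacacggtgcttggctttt
Capitals mark TCATGTG on either strand, which begins 232 and 151 bases before the start. Of the 4 windows at hand, which cover 3 of the pigment and crest genes, this was the only one with the motif. Of all windows, 3.25% held it.

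Genes of the dorsal neural tube and of neurons moved in both directions. Of the list of 37 dorsal neural tube and interneuron genes, 2 were higher and 5 lower, 18.9% in all. The share of all annotated protein-coding genes was 0.616%. The dorsal markers Wnt1, Lhx9 and Pax7 were not listed. The wider class of dorsal and neuronal genes, put together after the values were seen, had 10 higher and 13 lower members. Some regulators of rhombic lip and dorsal cell types were lower, and others, given below, were higher. Barhl1 was at 29.0% of wild type (log2 -1.79, adjusted p 3.21e-12 from the authors' deposited table). The proneural gene Atoh1, which specifies rhombic lip neurons and later hair cells, was at 29.3% (log2 -1.77, adjusted p 1.82e-05). Lhx2 (log2 -0.78, adjusted p 0.0259) and Olig3 (log2 -0.70, adjusted p 0.0129) of the dorsal progenitors and interneurons were also lower in the authors' deposited table. In homozygotes Barhl1 and Lhx2 were lower again, at log2 -1.99 and -3.16 in the authors' deposited table, and Atoh1 and Olig3 were not listed.

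Other dorsal genes were higher in the same libraries. Prdm13, which promotes inhibitory over excitatory dorsal neuron fates, was 3.64-fold higher (log2 1.86, adjusted p 5.81e-05 from the authors' deposited table). The corepressor gene Skor1 was 3.33-fold higher (log2 1.73, adjusted p 0.0259 from the authors' deposited table). Robo3, the receptor that lets commissural axons cross the floor plate, was 3.02-fold higher (log2 1.59, adjusted p listed as 0 from the authors' deposited table). The guidance receptor gene Robo3 and the floor plate cue genes Slit1, Slit2 and Ntn1 were thus listed in opposite directions. Robo3 was at 7.48% of wild type in homozygotes (log2 -3.74, adjusted p 1.16e-08 from the authors' deposited table).

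Of 41 neuroblast and ganglion genes, 2 were higher and 2 lower, 9.76% in all, against 0.616% of all annotated protein-coding genes. The neuroblast factor Neurod4 was at 52.6% of wild type (log2 -0.93, adjusted p 0.000814) and the axonal adhesion gene Cntn2 at 77.9% (log2 -0.36, adjusted p 0.026) per the authors' deposited table. The sensory neuron factor Pou4f1 was 1.46-fold higher (log2 0.54, adjusted p 0.0375) and the migrating-neuron gene Dcx 1.15-fold (log2 0.21, adjusted p 0.000819) per the authors' deposited table. In homozygotes Pou4f1 was at log2 -1.96, Neurod4 at -4.13 and Cntn2 at -2.59 in the authors' deposited table. The neuroblast markers Neurog1, Neurod1 and Isl1 were not listed in heterozygotes.

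Further neuronal genes were mostly lower. The transcription factor genes Pou3f3 (log2 -0.57, adjusted p 5.52e-05), Foxp2 (-0.62, adjusted p 2.68e-06) and St18 (-0.55, adjusted p 0.0359) were at about the same level, with 67.2%, 65.3% and 68.5% of wild type in the authors' deposited table. In homozygotes Foxp2 was at log2 -0.73, whereas Pou3f3 was at -2.77 and St18 at -3.06 in the authors' deposited table. The small GTPase gene Rnd2 was at log2 -0.58 and the endothelin-converting enzyme-like gene Ecel1 at -1.28 in the authors' deposited table. Among the higher ones were the glutamate receptor gene Grik3 (log2 0.74, adjusted p 0.000356), the G protein regulator gene Rgs4 (0.62) and the nephrin-like adhesion gene Kirrel2 (1.05, adjusted p 0.0154) per the authors' deposited table. Kirrel2 was lower in homozygotes, at log2 -2.21 in the authors' deposited table.

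The axon guidance list of 64 genes had 6 lower and 2 higher members, 12.5% in all, against 0.616% of all annotated protein-coding genes. Beside those named, Sema3a, encoding a repellent of sensory axons, was at 65.4% of wild type (log2 -0.61, adjusted p 5.18e-07 from the authors' deposited table) and in homozygotes at 73.8% (log2 -0.44, adjusted p 0.046). Slitrk6, needed for innervation of the inner ear, was at 65.2% (log2 -0.62, adjusted p 0.000581) and in homozygotes at 7.27% in the authors' deposited table. Sema7a, outside the list, was at log2 -0.76 (adjusted p 0.0256 from the authors' deposited table).

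Of the 50 genes of otic epithelium and patterning, 3 were listed, 6%, against 0.616% of all annotated protein-coding genes. Aldh1a3 was higher, and Ntn1 and Slitrk6 were lower. None of the 10 otic markers examined, among them Pax2, Pax8, Dlx5, Hmx2, Hmx3, Oc90, Eya1, Gbx2 and Otx1, was listed. As levels are not given, the presence of otic epithelium in the libraries could not be checked from these markers. Of 58 deafness genes, Chd7, Pou3f4 and Slitrk6 were lower and Pax3 higher, 6.90% in all, against 0.616% of all annotated protein-coding genes.

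Of 23 retinoic acid genes, 2 were higher and 2 lower, 17.4% in all, against 0.616% of all annotated protein-coding genes. Aldh1a3, which makes retinoic acid and which the series title places downstream of CHD7, was 3.02-fold higher (log2 1.59, adjusted p 1.92e-07 from the authors' deposited table). The receptor gene Rxrg was 1.94-fold higher (log2 0.95, adjusted p 0.0085 from the authors' deposited table). Cyp26b1, which degrades retinoic acid, was at 74.1% of wild type (log2 -0.43, adjusted p 2.33e-06), and the retinoid-responsive nuclear receptor gene Nr2f1 at 78.5% (log2 -0.35, adjusted p 0.0294) per the authors' deposited table. The nuclear receptor genes Rxrg and Nr2f1 were thus listed in opposite directions. In homozygotes, set against the same wild type libraries, Aldh1a3 was at log2 2.58 and Cyp26b1 at -1.21 in the authors' deposited table. The other 19 of the 23 genes, Aldh1a1, Aldh1a2, Rdh10 and Rarb among them, were not listed.

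Hox genes, which retinoic acid controls in the hindbrain, were represented by Hoxc4 and Hoxb4. Hoxc4 was 8.65-fold higher (log2 3.11, adjusted p 0.00232) and Hoxb4 3.05-fold (log2 1.61, adjusted p 0.0164) per the authors' deposited table. Both belong to paralogue group 4, of which 2 of 4 genes were listed, against 0 of the other 35 Hox genes. As 0.183% of all annotated protein-coding genes were listed as higher, 0 of 35 says little about the other Hox genes. At an adjusted p of at most 0.01, Hoxc4 alone remained. Group 4 genes are expressed in the neural tube up to the caudal hindbrain. The grouping was made after the values were seen. Homozygotes had 0 listed Hox genes.

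Blood and vessel genes went both ways. Listed red cell genes were lower, 4 of 39 or 10.3%, against 0.434% of all annotated protein-coding genes listed as lower. The adult beta globin gene Hbb-b2 was at 18.5% of wild type (log2 -2.44, adjusted p 0.00984 from the authors' deposited table). The other 3 were at 73.8% or more: the embryonic globin gene Hba-x was at 77.8% (log2 -0.36, adjusted p 0.0443), the alpha globin gene Hba-a1 at 81.3% (log2 -0.30, adjusted p 0.00392) and the anion exchanger gene Slc4a1 at 73.8% (log2 -0.44, adjusted p 0.0217) per the authors' deposited table. The red cell markers Hbb-bh1, Hbb-y and Alas2 were not listed. Globin genes share reads with close paralogues, so single members are uncertain. The amount of blood per dissection was not measured.

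S100a9, a calprotectin subunit of neutrophils, was 24.1-fold higher (log2 4.59, adjusted p 0.0152 from the authors' deposited table), while its partner S100a8 and the neutrophil genes Ngp, Camp and Ltf were not listed. Of the vessel genes, the sinusoidal scavenger receptor gene Stab2 was 2.71-fold higher (log2 1.44, adjusted p 5.99e-07) and the progenitor and endothelial surface gene Cd34 at 73.9% of wild type (log2 -0.44, adjusted p 1.01e-09) per the authors' deposited table. The endothelial markers Pecam1, Cdh5, Kdr and Emcn were not listed.

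Few genes of the signal pathway lists were listed. The ligand gene Fgf15 was 2.59-fold higher (log2 1.37, adjusted p 0.0013 from the authors' deposited table) and the receptor gene Fgfr3 at 84.7% of wild type (log2 -0.24, adjusted p 0.000539), the only listed members of 38 FGF and MAPK genes. Of 70 Wnt and BMP genes, the ligand gene Wnt7b was higher (log2 0.44, adjusted p 0.022) and the secreted Wnt antagonist gene Frzb lower (log2 -0.51, adjusted p 0.0203) per the authors' deposited table. Of 27 Notch genes Dlk1 alone was listed, 3.70%. The shares of the FGF and MAPK and of the Wnt and BMP lists were 5.26% and 2.86%, against 0.616% of all annotated protein-coding genes. With so few genes listed in all, these counts do not show whether a pathway changed as a whole.

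Among other secreted factors, the chemokine gene Cxcl14 was at 31.7% of wild type (log2 -1.66, adjusted p 0.00437), Metrnl at 42.0% (log2 -1.25, adjusted p 0.0116) and Enpp2, which makes lysophosphatidic acid, at 56.9% (log2 -0.81, adjusted p 1.54e-05) per the authors' deposited table. Pdgfc was at log2 -0.57 and the receptor gene Tgfbr2 at -0.33 in the authors' deposited table. The Hes family gene Hes2 was at 16.3% (log2 -2.61), close to the threshold with an adjusted p of 0.0437 in the authors' deposited table.

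Of 85 channel and transmitter receptor genes, 3 were lower and 1, Grik3, higher, 4.71% in all, against 0.616% of all annotated protein-coding genes. The substance P receptor gene Tacr1 was at 20.3% of wild type (log2 -2.30, adjusted p 0.00382), and the PACAP receptor gene Adcyap1r1 at 46.3% (log2 -1.11, adjusted p listed as 0) per the authors' deposited table. Cacna1g, a T-type calcium channel gene, was at 82.3% (log2 -0.28, adjusted p 0.00264 from the authors' deposited table). The peptide transporter gene Slc15a2, outside the list, was at 45.4% (log2 -1.14, adjusted p 0.000374 from the authors' deposited table).

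The 0 listed members of the low oxygen and glycolysis, heat shock and immediate early, muscle, and surface ectoderm lists concern 34, 31, 36 and 26 genes. With 0.616% of all annotated protein-coding genes listed, a count of 0 in lists of this size says little. Of a hand-made list of 39 X-linked, Y-linked and imprinted genes, Dlk1 alone was listed, and Xist was not. Over the whole X chromosome, 6 of 966 protein-coding genes were listed, 0.621%, against 0.616% of all. Of the 63 listed genes in none of the 27 lists, the largest rise was that of the pseudogene Pisd-ps1, 31.7-fold (log2 4.99, adjusted p listed as 0 from the authors' deposited table), and reads of its parent gene may be counted with it. The gene 2610507I01Rik, with no role given here, was 3.60-fold higher (log2 1.85, adjusted p 3.35e-06) and in homozygotes 3.62-fold (log2 1.85, adjusted p 0.021) per the authors' deposited table. The ribosomal protein gene Rps27 (log2 1.40, adjusted p 0.0211), which has many processed copies, and the mitochondrial leucyl-tRNA synthetase gene Lars2 (log2 1.03, adjusted p listed as 0) were also higher in the authors' deposited table.

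**Figure D4:**
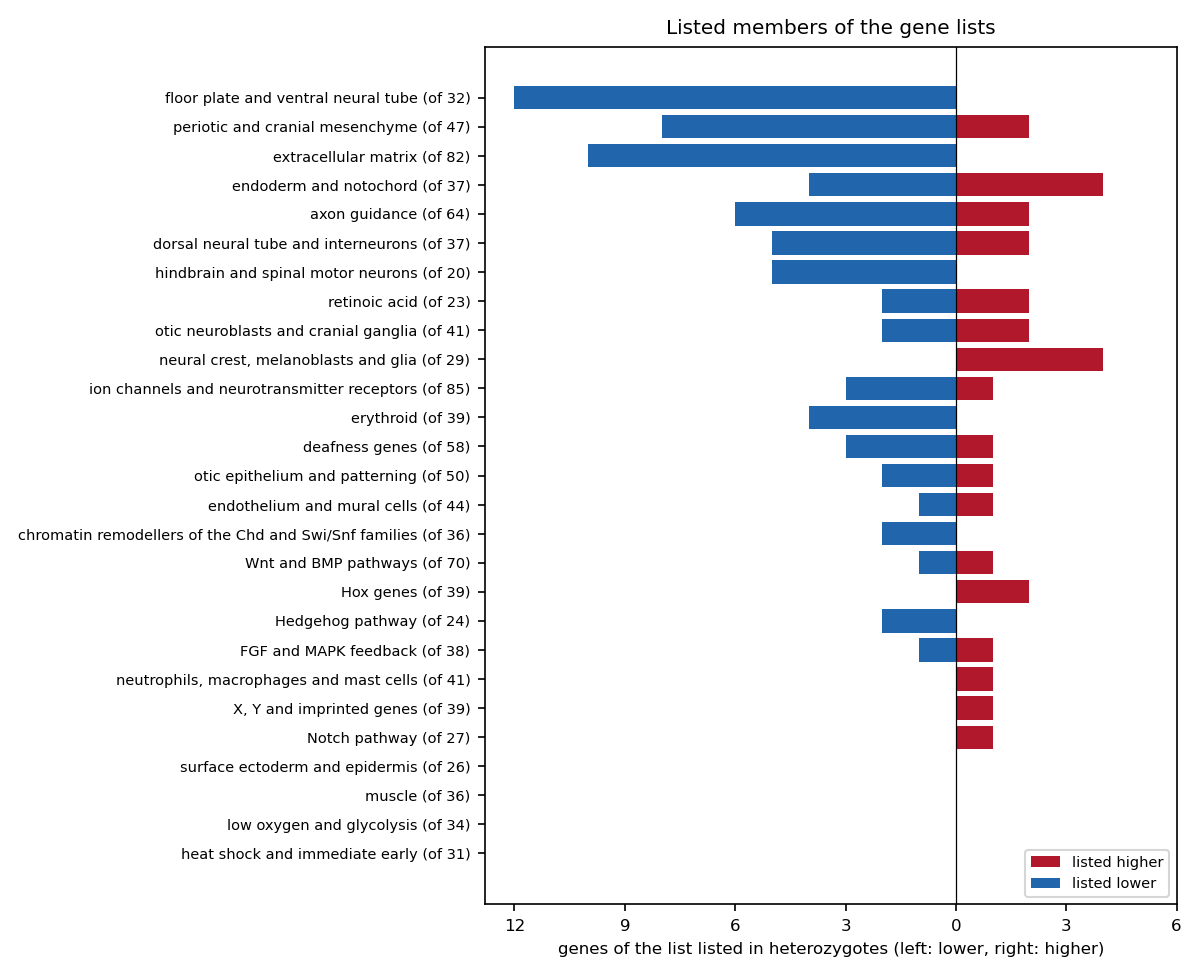
Number of genes of each of the 27 lists that were listed in heterozygotes (x axis; red bars to the right higher, blue bars to the left lower), with the size of each list in brackets (y axis). The floor plate list has 12 lower and 0 higher members, the matrix list 10 lower, and the bottom 4 lists have none; a gene can count in several lists.

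Of the 138 genes, 82 were not in the homozygous lists, which hold 4.75% of all annotated protein-coding genes. Most annotated genes are thus absent from those lists, and absence alone does not set the heterozygous genes apart. The genes not listed were 33 of the 43 higher and 49 of the 95 lower genes. Of the lower genes, 43 were also lower in homozygotes and 3 were higher there. Of the higher genes, 5 were also higher in homozygotes and 5 were lower there. By class, the genes not listed took in all of the endoderm-secreted, pigment cell, Hox and RNA genes. They also took in 11 of 12 floor plate and ventral genes, and 2 of 12 mesenchyme regulators. Both comparisons rest on the same wild type libraries, so the genes listed in both were not counted as independent evidence. The difference between the genotypes could not be tested without values per library.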

How the data were processed

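Polyadenylated RNA of dissected otocysts was sequenced from 2 wild type, 2 heterozygous and 2 homozygous libraries, grouped by the genotype in their titles. The authors deposited gene lists for each mutant genotype against wild type, with log2 fold changes (mutant relative to wild type) and adjusted p-values, per the file headers. Bowtie2 2.0.6, DESeq 1.22.1 and mm9 are named, without roles, by the submitters' processing notes. How reads were counted or filtered is not given in the sources used here. An exact 0 among the deposited p-values was left as listed.

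No test was run: only called genes were at hand, with no values per library, so depth and replicate spread are unknown, and the planned count test could not be made. Folds and percents of wild type were computed from the deposited log2 values. All 138 symbols matched RefSeq genes, 6 through a synonym. Of these, 135 are protein-coding. Genes were placed by hand in 16 classes after their values were seen, and compared with 27 lists of 1012 distinct genes. Members and lists were chosen with earlier results of these data known. By the rule for named genes, values are given for Chd7, Aldh1a3, the 8 largest folds and 4 smallest adjusted p-values in each direction and all listed members of the lists; other class members were added with values after these were seen. A few genes covered by this rule are left unreported, though the counts include them. Promoter windows (GRCm38.p6; 27025 genes) were searched for 6 motifs in the 250 bases before the start, by code tested on simulated data. Alternatives were a lower limit on adjusted p, a minimum absolute fold, restriction to matched symbols and other gene totals. Python 3.11.15, pandas 2.3.3, numpy 2.4.6, scipy 1.17.1 and matplotlib 3.10.9 were used.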

Additional observations from a re-analysis of the deposited data

How the results depend on the processing

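At an adjusted p of at most 0.01 in the authors' deposited table, 28 genes were higher and 59 lower, 46 of them not in the homozygous lists, and the median log2 fold of the lower genes was -0.84. With absolute log2 folds of 1 or more, 19 were higher and 32 lower, 34 were not in the homozygous lists, 37 belonged to a gene list, and the medians were 1.61 and -1.92. The share of lower genes was 68.8%, 67.8% and 62.7% in these 3 settings. Of the floor plate list, 10 of the 12 lower genes passed either setting; of the matrix list 5 and 3 of 10, of the red cell list 2 and 1 of 4, and of the crest and pigment list 4 and 1 of 4. Symbols matched to the annotation changed no value, since all matched. With all 49997 RefSeq genes as the total, 0.276% were listed in heterozygotes. With the bases after the start added to the window, motif shares of the higher and of the lower genes stayed within the counting interval of those over 250 bases, whereas over all promoters TATAAA went from 12.4% to 13.6%, the FOXA letters from 3.17% to 3.65% and the M-box from 3.25% to 3.77%. No paired analysis was possible because the results come from no test on libraries, and for the same reason no library was left out and no other normalization, filter or tool was run.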

Other observations

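Neighbouring genes were found in the heterozygous lists at 3 places. Nkx2-2, Pax1 and Foxa2 follow each other on chromosome 2 with no other protein-coding gene between them in the RefSeq order, and the authors' deposited table gives them log2 folds of -3.02, -2.07 and -3.42. Dlx1 and Dlx2, on the same chromosome, were at -1.09 and -1.20, and the globin genes Hba-x and Hba-a1 on chromosome 11 at -0.36 and -0.30 in the authors' deposited table. The members of each run moved in the same direction.

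Transcript length differed little by direction. The longest annotated GENCODE M21 transcript had a median of 3459 nt for the 43 higher genes and 3594 nt for 94 of the 95 lower genes, a log2 ratio of 0.06. With the median transcript of each gene the ratio was 0.04. Promoter windows of the higher genes and of the lower genes both had a median of 11 CpG dinucleotides in 250 bases, against 6 over all promoter windows. All windows together cover 27025 genes, more than the 21900 protein-coding ones, so they form a broader set than the mostly protein-coding listed genes. By class the medians ran from 2 in the 3 windows of the endoderm group to 20 in the 9 windows of the floor plate and ventral genes, with 18 for motor neuron regulators, 17 for RNA and translation genes and 16 for signals, receptors and adhesion genes. The homeodomain letters TAATTA were in 12.8% of the 47 windows of higher genes, 1.1% of the 91 windows of lower genes and 4.84% of all windows; some windows belong to the same gene.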
